A study of Mus musculus with 4 samples.

Results

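The genes described here are 9 genes by which dendritic cells (DCs) are recognised, taken by gene symbol from the 24346 genes listed for each library: the transcription factor genes *Zbtb46*, *Batf3*, *Irf4* and *Id2* and the surface protein genes *Cd209a*, *Clec10a*, *Mgl2*, *Ccr7* and *Dpp4*. They were followed in RNA-seq libraries of *in vitro* MDSCs, the immature suppressive myeloid cells that grow from bone marrow (BM) under GM-CSF. BM cells of female C57BL/6J mice aged 6 to 8 weeks were cultured for 4 days with 40 ng/ml GM-CSF in both groups. The 2 Control libraries had no other cytokine, and the 2 G-CSF libraries came from cultures that also received 5 ng/ml G-CSF. The comparison asks how the expression profile of MDSCs differs when G-CSF is present. The cells were sequenced as whole cultures, not as sorted DCs, so that a value is an average over every cell type in the dish. The replicates are called biological by the study, but no source states whether they came from separate mice, and the p-values measure the spread between these libraries.

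DCs take up antigen, display it on MHC class II and carry it to T cells. The conventional lineage is marked by *Zbtb46*, and its cDC1 branch depends on *Batf3*, *Id2* and *Irf8*, while many cDC2 and monocyte-derived DCs use *Irf4* and carry the lectins encoded by *Cd209a*, *Clec10a* and *Mgl2*. Mature DCs show CCR7, the receptor that guides them toward lymph nodes. GM-CSF cultures of BM are a classical source of DC-like cells beside granulocytes and macrophages. None of the 9 genes is exclusive to DCs: *Id2* and *Dpp4* are also used by lymphoid cells, *Irf4* by B cells and macrophages and *Ccr7* by T cells.

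Each value is an FPKM, the number of fragments scaled to transcript length and library size, and it can therefore be set side by side between genes. The libraries held an estimated 12450000 to 15700000 reads, and every member had at least 10 estimated reads in every library. Across 10473 genes with at least 1 FPKM throughout, the correlation (Pearson's r of log2 FPKM, across genes, which are not independent replicates) was 0.996 within either group and between 0.986 and 0.989 for libraries of different groups. An extraction note in the labels mentions liver tissue, but *Alb* and 7 more of 10 hepatocyte genes were listed at 0 in every library, whereas *Lyz2*, the lysozyme gene of myeloid cells, had 6624 FPKM or more in each.

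All 9 genes had a lower mean FPKM with G-CSF than in Control, and all 9 log2 fold changes were below 0, as were 49.9% of those of all genes tested. With limma on log2(FPKM + 0.1), 6 of the 9 genes passed an adjusted p of 0.05 (Benjamini-Hochberg, over all 12056 genes tested), namely *Cd209a*, *Mgl2*, *Dpp4*, *Batf3*, *Irf4* and *Id2*, and each of these was lower. For comparison, 11.3% of all genes tested passed that threshold in the lower direction and 12.4% in the higher. These shares are also the background for the counts of each list below. In 8 of the 9 genes, both G-CSF libraries lay below both Control libraries, a separation seen in 32.5% of all genes tested, with 33.4% separated the other way. The median log2 fold change of the members was -0.53, against 0.00044 for all genes tested. Only *Cd209a* fell by more than 2-fold, where 0.896% of genes tested did so in that direction at the same adjusted p and 1.41% in either direction. With 2 libraries a group, an exact permutation test of a single gene cannot give a p below 0.333, and the spread was therefore estimated across all genes. In a culture of mixed cells, fewer cells of a type and less RNA per cell cannot be told apart.

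**Figure D1:**
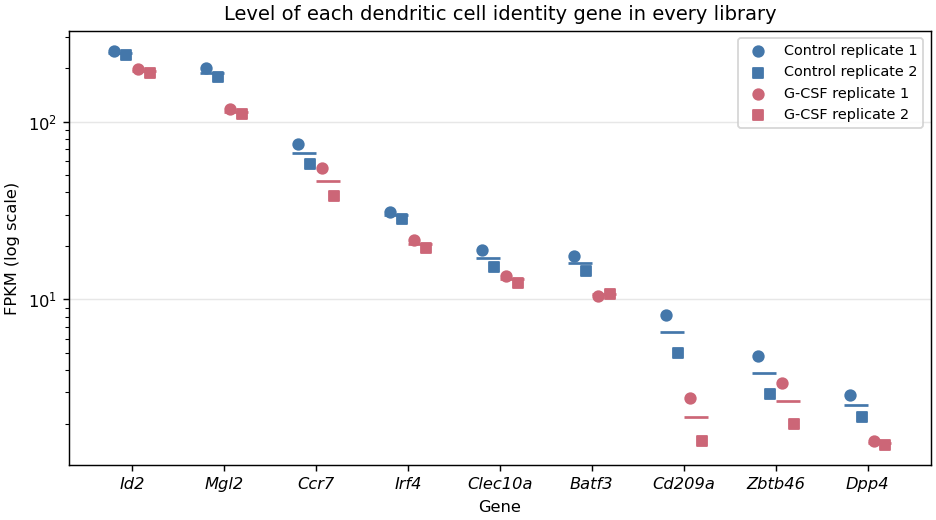
FPKM (log axis) of each of the 9 genes in the 4 libraries, ordered by mean level; points are libraries (circles replicate 1, squares replicate 2, blue Control, red G-CSF) and short lines are group means. The levels run from 250 FPKM for *Id2* in Control replicate 1 to 1.51 FPKM for *Dpp4* in G-CSF replicate 2, and *Zbtb46* is the gene whose groups overlap.

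The levels covered a wide range. *Id2* stood highest in every library, followed by *Mgl2*, *Ccr7*, *Irf4*, *Clec10a* and *Batf3*, and *Cd209a*, *Zbtb46* and *Dpp4* stood lowest. *Mgl2* was below *Id2* in 4 of 4 libraries, although the ranges of these genes over the 4 libraries overlapped, with a ratio between 1.25 and 1.72. The same held for *Clec10a* and *Batf3*, whose ratio was between 1.05 and 1.29. *Cd209a* and *Zbtb46* changed places: *Cd209a* had the higher FPKM in both Control libraries and *Zbtb46* in both G-CSF libraries. *Mgl2* made up 32.9% of the summed FPKM of the 9 genes in the Control means and 28.2% in the G-CSF means, and *Id2* 42.4% and 47.8%. The summed FPKM was 609 and 541 in Control against 423 and 385 with G-CSF, and thus did not overlap between groups.

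Among the surface lectins, *Cd209a* encodes a C-type lectin of the DC-SIGN family and lies on the minus strand of mouse chromosome 8 (3743397 to 3748984, GRCm38). Its FPKM was 8.13 and 4.97 in Control against 2.77 and 1.60 with G-CSF. Both G-CSF values lay below both Control values, and within each group the replicate 1 library was the higher. The mean went from 6.55 ± 2.23 to 2.19 ± 0.824 FPKM (SD, n = 2 each), a log2 fold change (± SE) of -1.55 ± 0.305 (limma adjusted p = 0.0166). This fall was the 23rd largest of all genes tested and rested on 139 and 90 estimated reads in Control against 44 and 32 with G-CSF. Without any filter on low values, the limma adjusted p of *Cd209a* was 0.0605. The upstream sequence of *Cd209a*, the member with the largest fall, is printed here from RefSeq on the strand of the gene (GRCm38.p6, chr8:3748985-3749234), all in lower case because it held no match to the motifs searched.
Cd209a: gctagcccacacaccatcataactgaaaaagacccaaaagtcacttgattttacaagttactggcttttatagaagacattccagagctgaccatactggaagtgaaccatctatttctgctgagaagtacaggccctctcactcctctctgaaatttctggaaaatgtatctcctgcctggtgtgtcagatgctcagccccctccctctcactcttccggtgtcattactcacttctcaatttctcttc

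*Cd209a* was not alone in its family. *Cd209c*, a gene of the same cluster (chromosome 8, 3940222 to 3954746), had 10.8 and 8.77 FPKM in Control and 4.49 and 4.29 FPKM with G-CSF, a log2 fold change (± SE) of -1.13 ± 0.120 (limma adjusted p = 0.00417). These were the only 2 of 7 CD209 genes that passed the filter on low values, and both fell. Among the others, *Cd209d* reached 0.753 FPKM in Control replicate 2, *Cd209e* stood at 0.334 FPKM or less, *Cd209b* was seen in Control replicate 1 at 0.085 FPKM, and *Cd209f* and *Cd209g* were listed at 0 throughout. The coding sequences of *Cd209a* and *Cd209c* were identical at 71.7% of aligned bases with a longest common run of 17 bases, and 0 of the 1716 windows of 75 bases in *Cd209a* transcripts occur in another gene.

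*Mgl2* and *Clec10a* encode the macrophage galactose-type lectins CD301b and CD301a, which bind galactose and N-acetylgalactosamine on glycoproteins. They are neighbours on the plus strand of chromosome 11, *Mgl2* from 70130329 to 70137550 and *Clec10a* from 70156197 to 70170834 (GRCm38), with 18646 bases and no annotated gene wholly between them. The *Mgl2* values were 200 and 178 FPKM in Control and 118 and 110 FPKM with G-CSF. The groups did not overlap, and the mean went from 189 ± 15.7 to 114 ± 5.79 FPKM (SD, n = 2 each). At a log2 fold change (± SE) of -0.73 ± 0.0679 (95% interval -0.89 to -0.56), *Mgl2* had the smallest limma adjusted p of the members, 0.00317. *Clec10a* had 19.1 and 15.2 FPKM in Control and 13.6 and 12.3 FPKM with G-CSF. These groups did not overlap either, but the log2 fold change (± SE) of -0.39 ± 0.116 (95% interval -0.67 to -0.11) missed the threshold (limma adjusted p = 0.0537). It was -0.23 without Control replicate 1 (limma adjusted p = 0.179) and -0.32 without G-CSF replicate 2 (limma adjusted p = 0.148). Without Control replicate 2 it was -0.56 and passed (limma adjusted p = 0.0157), and with limma voom on estimated reads it also passed (-0.38, limma adjusted p = 0.0377).

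The coding sequences of these paralogs are alike at 88.7% of 914 aligned bases. The stretch around their longest common run, 183 bases, is shown with its neighbouring bases as an example of where a 75-base read fits both genes. It does not hold every window that the 2 genes share. Capitals mark the 6 bases at which the aligned stretches differ, and both run 5′ to 3′ in the coding strand of GENCODE M21 transcripts, from coding base 462 to 724 in *Clec10a* and from 510 to 772 in *Mgl2*.
Clec10a: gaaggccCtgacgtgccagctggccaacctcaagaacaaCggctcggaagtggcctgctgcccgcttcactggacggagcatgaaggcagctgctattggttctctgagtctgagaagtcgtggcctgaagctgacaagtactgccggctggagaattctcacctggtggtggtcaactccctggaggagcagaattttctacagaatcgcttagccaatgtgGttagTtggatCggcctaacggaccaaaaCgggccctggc
Mgl2: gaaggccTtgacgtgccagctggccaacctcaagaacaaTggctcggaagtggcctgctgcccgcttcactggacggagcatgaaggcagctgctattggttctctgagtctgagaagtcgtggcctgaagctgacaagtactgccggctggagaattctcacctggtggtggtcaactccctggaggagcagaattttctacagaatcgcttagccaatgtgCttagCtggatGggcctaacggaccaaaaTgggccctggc

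Of the 75-base windows in their transcripts, 148 occur in both genes, which is 6.56% of those of *Mgl2* and 4.44% of those of *Clec10a*. Since *Mgl2* stood about an order of magnitude above *Clec10a*, reads from these windows bear more on the value of *Clec10a*, and how the authors' software divided them is not given in the sources used here. The level of *Clec10a* is uncertain to that extent. *Asgr2*, a related galactose-binding lectin upstream of *Mgl2* (chromosome 11, 70092644 to 70106187), had 40.1 and 23.97 FPKM in Control and 18.6 and 12.8 FPKM with G-CSF, a log2 fold change (± SE) of -1.003 ± 0.258 (limma adjusted p = 0.0357). *Asgr1* and *Clec4f*, the other related lectins followed, were listed at 0 in every library. Thus 2 of the 3 lectins tested in this family, *Mgl2* and *Asgr2*, passed an adjusted p of 0.05 and were lower, and *Mgl2* alone without Control replicate 1 or without G-CSF replicate 2.

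*Ccr7* encodes the chemokine receptor of mature DCs and lies on chromosome 11 (99144196 to 99155077, minus strand). It had 75.4 and 58.1 FPKM in Control and 54.5 and 38.3 FPKM with G-CSF. The groups were separate, but by little: the higher G-CSF library and the lower Control library were closer to each other than to the other library of their own group. The means were 66.7 ± 12.2 and 46.4 ± 11.5 FPKM (SD, n = 2 each), and the log2 fold change (± SE) of -0.53 ± 0.181 (95% interval -0.97 to -0.10) did not pass (limma adjusted p = 0.0766). It was -0.35 without Control replicate 1 (limma adjusted p = 0.228) and -0.28 without G-CSF replicate 2 (limma adjusted p = 0.204). It passed without Control replicate 2 (-0.72, limma adjusted p = 0.0357), without G-CSF replicate 1 (-0.79, limma adjusted p = 0.0183) and with limma voom on estimated reads (-0.53, limma adjusted p = 0.0334). The CCR7 ligands had little RNA in these cultures. *Ccl19* was listed above 0 in Control replicate 2 alone, at 0.138 FPKM, and *Ccl21a*, *Ccl21b* and *Ccl21c* were listed at 0 throughout. Of the atypical receptors of the same list, *Ackr4* stood at 0.084 FPKM or less, and *Ccrl2* had 7.45 and 5.72 FPKM in Control and 5.52 and 5.87 FPKM with G-CSF (log2 fold change -0.20, limma adjusted p = 0.342). *Ccrl2* was the 1 gene of this list that was tested: 0 genes passed with limma, 0 had an unadjusted p under 0.05 and 0 passed with voom.

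*Dpp4* encodes CD26, a membrane peptidase that trims chemokines and binds adenosine deaminase, and lies on chromosome 2 (62330073 to 62412231, minus strand). It was the lowest of the 9 genes, with 2.89 and 2.17 FPKM in Control and 1.59 and 1.52 FPKM with G-CSF. Both G-CSF libraries were below both Control libraries, and the G-CSF libraries lay close together while the Control libraries were spread. The log2 fold change was -0.66 (standard error 0.179, 95% interval -1.09 to -0.23, limma adjusted p = 0.0420). This call was lost in 3 of the 4 fits with a library left out, without Control replicate 1 (-0.46, limma adjusted p = 0.184), without G-CSF replicate 1 (-0.69, limma adjusted p = 0.0954) and without G-CSF replicate 2 (-0.63, limma adjusted p = 0.111). In the list of the dipeptidyl peptidase family and the CD26 ligand, 3 of 9 genes tested were lower and 1 was higher. Besides *Dpp4*, the lysosomal peptidase genes *Dpp7* (log2 fold change -0.38, limma adjusted p = 0.0129) and *Prcp* (-0.34, limma adjusted p = 0.00872) fell, and *Ada*, the gene of adenosine deaminase, rose by 0.99 (limma adjusted p = 0.00233), from 8.14 and 7.69 to 16.6 and 15.1 FPKM.

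**Figure D2:**
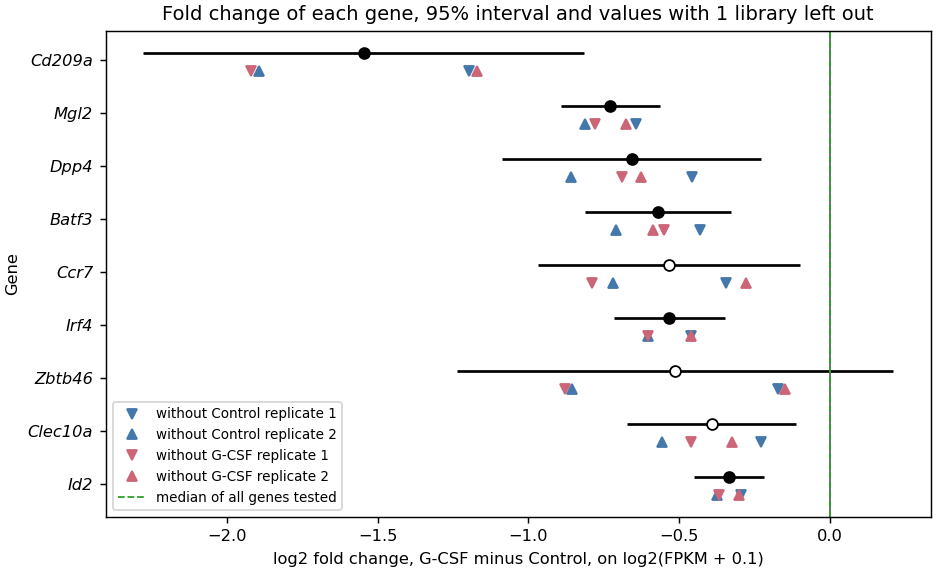
Log2 fold change (G-CSF minus Control, on log2(FPKM + 0.1)) of the 9 genes with its 95% interval (circles and bars; filled circles pass a limma adjusted p of 0.05) and, below each, the value with 1 library left out (triangles, coloured by the group that lost it); the dashed line is the median of all genes tested. Every point lies below 0, from -1.92 to -0.15, and the interval of *Zbtb46* alone crosses 0.

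Of the transcription factors, *Irf4* (chromosome 13, 30749226 to 30766976, plus strand) takes part in cDC2 differentiation. Its values were 31.2 and 28.2 FPKM in Control and 21.5 and 19.5 FPKM with G-CSF. The libraries of a group lay close together and the groups were well apart, with a log2 fold change (± SE) of -0.53 ± 0.0764 (95% interval -0.72 to -0.35, limma adjusted p = 0.00732). *Batf3*, a basic leucine zipper factor required for cDC1, lies on chromosome 1 (191097847 to 191108945, plus strand). It stood at 17.5 and 14.4 FPKM in Control and 10.5 and 10.8 FPKM with G-CSF, without overlap, and was the one member whose replicate 2 library was the higher in the G-CSF group. Its log2 fold change (± SE) was -0.57 ± 0.101 (95% interval -0.81 to -0.33, limma adjusted p = 0.0126). It is the shortest of the 9 transcripts, and its values came from 138 and 121 estimated reads in Control against 77 and 100 with G-CSF.

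*Id2*, on chromosome 12 (25093799 to 25097140, minus strand), encodes an inhibitor that binds E proteins and keeps them from DNA. It combined the highest level with the smallest fall: 250 and 237 FPKM in Control and 197 and 189 FPKM with G-CSF. The log2 fold change of -0.33 (standard error 0.0487, 95% interval -0.45 to -0.22, limma adjusted p = 0.00759) corresponds to a mean that was 20.7% lower. With at least 4323 estimated reads in each library, *Id2* is the member measured most precisely. *Zbtb46*, on chromosome 2 (181387762 to 181459426, minus strand), is the factor that marks the conventional DC lineage. It had 4.78 and 2.94 FPKM in Control and 3.37 and 1.99 FPKM with G-CSF. Here the groups overlapped, since G-CSF replicate 1 stood above Control replicate 2, and the log2 fold change (± SE) of -0.51 ± 0.301 had a 95% interval from -1.24 to 0.21 (limma adjusted p = 0.256). The estimate was close to those of *Irf4* and *Batf3*, and its error was larger. It lay between -0.88 (without G-CSF replicate 1) and -0.15 (without G-CSF replicate 2) with a library left out.

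Libraries of the same group also differed from each other. Control replicate 1 was above Control replicate 2 in 9 of 9 members, and G-CSF replicate 1 above G-CSF replicate 2 in 8. Replicate 1 was thus above replicate 2 in both groups in 8 of 9 members, against 27.1% of all genes tested. The ratio of replicate 1 to replicate 2 was 1.64 in Control and 1.73 with G-CSF for *Cd209a*, 1.63 and 1.69 for *Zbtb46*, and 1.30 and 1.42 for *Ccr7*. It was smaller for *Irf4* (1.11 and 1.10) and *Id2* (1.06 and 1.05). What the replicate numbers stand for is not given in the labels.

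The promoters of 7 members were found in RefSeq (GRCm38.p6), namely those of *Batf3*, *Cd209a*, *Dpp4*, *Id2*, *Irf4*, *Mgl2* and *Zbtb46*. The 250 bases before each start were searched on both strands for TTCNNNGAA, the palindrome bound by STAT factors, which G-CSF and GM-CSF receptors activate, for the composite element of PU.1 with IRF4 or IRF8 (ETS-IRF), and for the AP-1 pattern TGANTCA, which BATF factors with JUN can bind. A STAT pattern was present in *Batf3*, as it was in 7.02% of 32851 mouse promoters, and an AP-1 pattern in *Zbtb46*, as in 6.75%. The composite element was present in none of the 7, and in 2.30% of promoters overall. The matches do not overlap each other. In *Batf3* the match lies 239 to 231 bases before the RefSeq start, and in *Zbtb46* 61 to 55 bases before it, both starts lying inside the GENCODE gene. The *Zbtb46* start lies far inside: its 250 bases run from 181424389 to 181424638, whereas the gene, on the minus strand, begins at 181459426. Whether this stretch of *Zbtb46* acts as a promoter was not tested. Both are shown with the match in capitals, 5′ to 3′ on the strand of the gene, for *Batf3* from chr1:191098165-191098193 and for *Zbtb46* from chr2:181424433-181424459, minus strand. The patterns are letters in a window and no evidence of binding.
Batf3: gccacgtgacTTCCACGAAgagcgggggc
Zbtb46: ccatttacctTGACTCAtttcacagca

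The counts of the next lists stand beside 11.3% of all genes tested that passed as lower and 12.4% as higher. In the list of BATF, JUN and IRF partners, 4 of 12 genes tested were lower and none was higher: the members *Batf3* and *Irf4*, and *Jund* (log2 fold change -0.50, limma adjusted p = 0.0239) and *Fosl2* (-0.25, limma adjusted p = 0.0251). *Irf8*, the other IRF of the DC lineages, had 30.1 and 25.4 FPKM in Control and 29.99 and 23.8 FPKM with G-CSF (log2 fold change -0.05, 95% interval -0.35 to 0.25, limma adjusted p = 0.815), and *Batf* 37.4 and 39.0 against 35.8 and 38.9 FPKM (-0.03, limma adjusted p = 0.711). Among 6 E proteins and Id proteins tested, *Id2* fell and *Tcf12*, an E protein that Id factors bind, rose by 0.24 (limma adjusted p = 0.0467). In this list 0 genes passed in the higher direction in each of the 4 fits without a library and with upper-quartile scaling, and 1 did with voom. *Id3* had 12.4 and 22.6 FPKM in Control and 6.90 and 10.7 FPKM with G-CSF, with a wide spread (log2 fold change -0.95, standard error 0.303, limma adjusted p = 0.0653). Of 25 other DC transcription factors tested, 4 were lower and 1 was higher. The 4 lower calls lie near the share of 11.3% over all genes tested. The median log2 fold change of the 25 was -0.11, and -0.06 without Control replicate 1. *Zfp366*, which encodes the DC nuclear protein DC-SCRIPT, fell from 4.18 and 3.26 to 1.39 and 1.48 FPKM (-1.31, limma adjusted p = 0.00551), *Relb*, the NF-κB subunit of mature DCs, fell by 0.65 (limma adjusted p = 0.00503), and *Nr4a3* and *Irf2* fell by 0.81 and 0.23 (limma adjusted p = 0.0352 and 0.0241). *Gfi1*, a repressor used in granulocyte differentiation, rose by 0.76 (limma adjusted p = 0.00732).

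Other genes of the same DC programmes were lower as well. The lists overlap, since *Relb*, *Ccl17*, *Kmo* and *Cd74* each stand in more than 1, so that their counts are not independent. In the list of mature migratory DC genes, the 29 non-members tested had a median log2 fold change of -0.49, and 15 of them passed as lower. With the member *Ccr7*, 30 of 30 genes tested had a log2 fold change below 0 and 15 passed an adjusted p of 0.05 with limma, with a median of -0.51. Without Control replicate 1 the count was 8 (median -0.31), and without Control replicate 2 it was 24 (median -0.73). *Cd80*, a costimulator of T cells, fell by 0.49 (limma adjusted p = 0.00434), and *Marcks*, an actin-binding substrate of protein kinase C, by 0.67 (limma adjusted p = 0.00581). *Fscn1*, which bundles actin in DC dendrites, had 53.2 and 36.9 FPKM in Control and 28.1 and 22.2 FPKM with G-CSF (-0.82, limma adjusted p = 0.0228). In this list 24 of 30 genes had replicate 1 above replicate 2 in both groups. Of the 13 genes tested in the list of cDC2 and monocyte-derived DC genes that are no members, 9 were lower and none was higher. The lower genes included *Epcam*, an adhesion molecule (log2 fold change -1.23, limma adjusted p = 0.00704), *Cd24a* (-0.52, limma adjusted p = 0.00542) and *Clec4a2* (-0.39, limma adjusted p = 0.0148). Members included, the median of this list was -0.55, and between -0.65 and -0.44 with a library left out. *Ccl17*, a chemokine of DCs, fell from 640 and 488 to 362 and 233 FPKM (-0.94, limma adjusted p = 0.0243).

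In the core list of conventional DCs, 6 of the 10 non-members tested were lower and none was higher. Members included, 7 of 13 genes passed with a median of -0.58, which became 4 without Control replicate 1 (median -0.37) and 4 without G-CSF replicate 2 (median -0.29). *Cd74*, the invariant chain of MHC class II, fell by 0.85 (limma adjusted p = 0.00595), *Amica1*, a junction adhesion molecule that granulocytes also carry, by 0.76 (limma adjusted p = 0.00325), and *Kit*, also the receptor of mast cells and progenitors, by 0.70 (limma adjusted p = 0.00551). *Flt3*, the receptor for the cytokine that drives conventional DCs, stood at 0.973 and 0.552 FPKM in Control and 0.582 and 0.315 FPKM with G-CSF (-0.65, limma adjusted p = 0.225). In the cDC1 list, 3 of 12 genes tested had a log2 fold change above 0, and none passed as higher. Among these 3 were *Wdfy4* (mean 41.7 FPKM in Control and 42.7 with G-CSF, limma adjusted p = 0.702) and *Snx22* (37.5 and 38.4 FPKM, limma adjusted p = 0.660). The median of this list was -0.42, and between -0.45 and -0.35 with a library left out. The 6 genes of this list that passed were lower. Apart from *Batf3*, they included the lysosomal enzyme genes *Naaa* (-0.54, limma adjusted p = 0.00569) and *Ppt1* (-0.53, limma adjusted p = 0.00233) and the antigen receptor gene *Ly75* (-0.46, limma adjusted p = 0.0115), while the cDC1-defining genes *Xcr1* and *Clec9a* stood at no more than 0.266 and 0.643 FPKM in any library. All 11 MHC class II genes had a log2 fold change below 0 and 8 passed, with a median of -0.87. That median lay between -1.02 and -0.65 with a library left out. Plasmacytoid DC genes gave 0 calls among 7 tested with limma, although 2 had an unadjusted p under 0.05 and 1 passed with voom, and their defining gene *Siglech* stood at 0.273 FPKM or less.

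**Figure D3:**
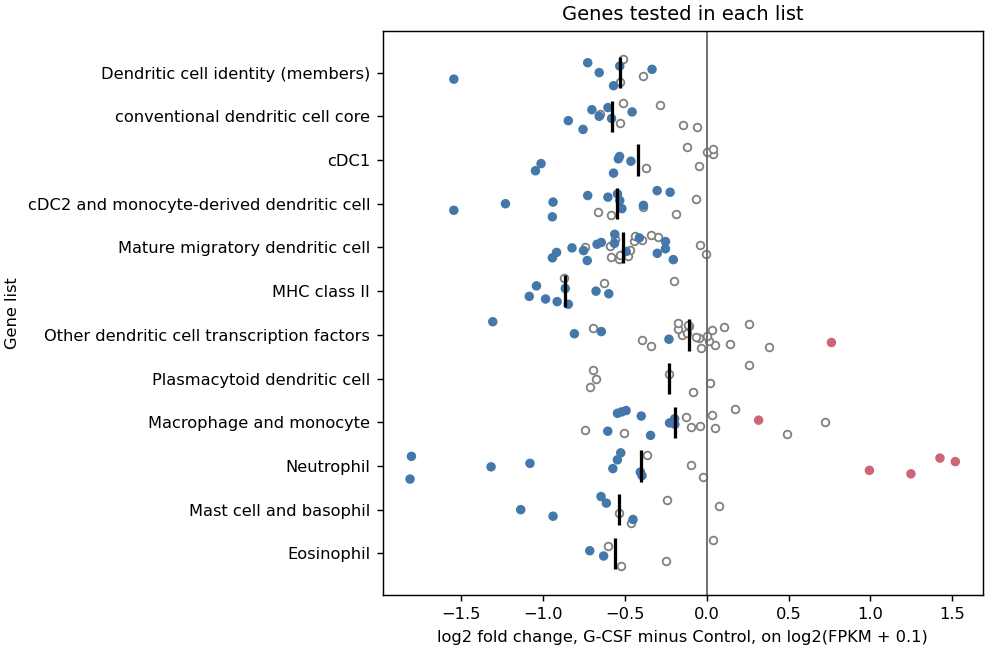
Log2 fold change (G-CSF minus Control, on log2(FPKM + 0.1)) of every gene tested in 12 lists; each point is a gene, filled where the limma adjusted p was under 0.05 (blue lower, red higher) and open otherwise, and black bars are medians, from -0.87 for MHC class II to -0.11 for the other DC transcription factors. Some genes stand in more than 1 list.

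Marker genes of other cell types also passed the test, and their part in the results above was not tested. In the macrophage and monocyte list, 9 of 20 genes tested were lower and 1 was higher, with a median of -0.20. The 9 lower calls became 5 without Control replicate 1, 3 without Control replicate 2, 0 without G-CSF replicate 1 and 4 without G-CSF replicate 2, while the median stayed between -0.21 and -0.17. *Csf1r*, the receptor gene of M-CSF, fell by 0.23 (limma adjusted p = 0.0183), and *F13a1*, a coagulation factor gene of monocytes, rose by 0.32 (limma adjusted p = 0.0109). Neutrophil genes went both ways, with 9 of 16 lower and 4 higher: *Camp*, of secondary granules, fell by 1.81 (limma adjusted p = 0.000501), and the primary granule genes *Mpo* and *Ctsg* rose by 1.52 and 1.25 (limma adjusted p = 0.000137 and 0.000388). In the mast cell and basophil list, 5 of 9 were lower, among them *Mcpt8* (-0.61, limma adjusted p = 0.00464), *Prss34* (-0.65, limma adjusted p = 0.00576) and *Cpa3* (-0.45, limma adjusted p = 0.00828), and the eosinophil genes *Epx* and *Prg2* fell by 0.63 and 0.72 (limma adjusted p = 0.0172 and 0.0225), which were the 2 calls among 6 tested. Without Control replicate 1 there were 5 eosinophil calls, and the median, -0.56 with all libraries, lay between -0.82 and -0.24 with a library left out. Most lymphoid genes were low, but *Nkg7* and *Il7r* were not. *Ncr1* was listed at 0 in every library, and *Cd3e* stood at 0.516 FPKM or less. *Nkg7* had 10.4 and 6.99 FPKM in Control and 15.1 and 10.3 FPKM with G-CSF (log2 fold change 0.54, limma adjusted p = 0.134). *Il7r* stood at 8.57 FPKM or more in every library (-0.18, limma adjusted p = 0.142). The summed FPKM of the 16 lymphoid genes was 26.2 and 22.0 in Control against 28.0 and 22.3 with G-CSF. *Nkg7* and *Il7r* carried most of this sum in each library. Of 7 lymphoid genes tested, 2 were lower, *Cd8a* (-1.05, limma adjusted p = 0.0261) and *Cd79a* (-0.98, limma adjusted p = 0.0183), both at 1.40 FPKM or less. *Cd8a* also stands in the cDC1 list and is 1 of the 6 calls there. Which lymphoid genes passed changed with the library left out: lower calls were lost, and in some of those fits a gene passed as higher. The median of the lymphoid list was -0.18, and between -0.43 and -0.16 with a library left out. No erythroid or hepatocyte gene passed the filter. Of 10 receptor and feedback genes of GM-CSF, FLT3 and G-CSF signalling, 5 were lower and none was higher in the main fit. With voom 6 were lower and 2 were higher, and likewise with the replicate block. Their median was -0.21, and between -0.24 and -0.17 with a library left out. The lower genes of the main fit included the receptor genes *Csf2ra* (-0.45, limma adjusted p = 0.00381) and *Csf3r* (-0.40, limma adjusted p = 0.0165) and the STAT5 target *Cish* (-0.32, limma adjusted p = 0.00732).

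Summed over each list, the FPKM of the 9 genes was 73.6% and 66.9% of the Control mean in the G-CSF libraries. MHC class II genes stood at 59.2% and 48.6%, mature migratory DC genes at 73.4% and 57.8%, macrophage and monocyte genes at 75.5% and 81.6% and neutrophil genes at 73.1% and 73.4%. A sum is carried by its most abundant genes, as by *Lyz2* in the macrophage and monocyte list. In the neutrophil list, *S100a8* and *S100a9* had 35613 and 31959 of the summed 81418 FPKM in Control replicate 1. The sum therefore does not show the 4 genes of that list that rose, *Elane*, *Mpo*, *Prtn3* and *Ctsg*.

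**Figure D4:**
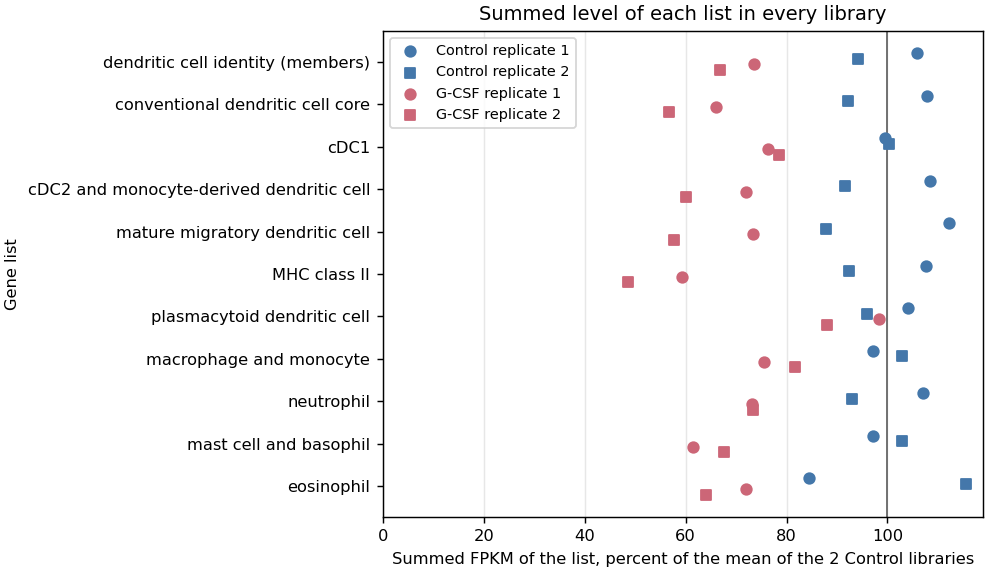
Summed FPKM of 11 lists in each library, as a percentage of the mean of the 2 Control libraries (circles replicate 1, squares replicate 2, blue Control, red G-CSF). The plasmacytoid DC list, at 98.4% and 88.0% with G-CSF, is the one list shown whose groups overlap.

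Genes with the most similar profile were sought for each of the 6 members that passed, by the Euclidean distance between log2(FPKM + 0.1) values centred on their mean over the 4 libraries, among 10782 genes with a mean of at least 1 FPKM. A distance over 4 libraries is a description only. *Cd24a* (distance 0.0224), *Trim34a* (0.0380) and *Axl* (0.0461) were nearest to *Irf4*. For *Dpp4* the nearest were *Kmo* (0.0695), a kynurenine enzyme gene of the core DC list, *Sh3bp4* (0.0731) and *Slc46a3* (0.0764), for *Mgl2* they were *Mical2* (0.0528), *Tbc1d10c* (0.0605) and *Marcks* (0.0642), and for *Batf3* they were *Fyn* (0.0376), *Dbndd2* (0.0432) and *Ngp* (0.0436). *Id2* had the closest neighbours, *Nhsl2* (0.0128), *Zbp1* (0.0176) and *Faap100* (0.0231), and *Cd209a* the most distant, *Fam167a* (0.400), *Tesc* (0.405) and *Trp53i11* (0.413).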

How the data were processed

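Whole cultures of *in vitro* MDSCs were measured by RNA-seq (stranded mRNA libraries, 75-base single reads), with 2 Control and 2 G-CSF libraries grouped by their titles. For each library the authors deposited FPKM values per gene symbol. The submitters' processing notes name mm10, TopHat2 2.0.13, Bowtie2 2.2.3, SAMtools 0.1.19 and Cufflinks 2.2.1 without roles. The annotation used is not given in the sources used here. Cufflinks estimates FPKM, and reads that fit several genes may be divided between them.

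Depth was estimated from single-transcript genes of 600 to 4000 bases with up to 8 reads, lengths shortened by 210 bases. The depth chosen was that at which the largest share of such values were whole reads to within 0.05. That share was 64.8% to 69.8%, where chance at a fixed depth gives 10.0%. Since the depth was chosen to make the share largest, 10.0% is not its own chance level. Lengths, positions and transcripts came from GENCODE M21 (GRCm38), where 23965 of 24346 genes were found, 655 by another symbol. Intervals cover the spread between libraries.

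Genes with transcripts of 300 bases or fewer, or of no known length, were left out, and a gene entered the test if 2 libraries had 10 or more estimated reads and the 4 together 15 or more. limma 3.58.1 (R 4.3.3; lmFit, eBayes with trend, two-sided) was run on log2(FPKM + 0.1), so that fold changes of low genes are understated, with Benjamini-Hochberg adjustment over all genes tested. The test was checked on simulated libraries. Alternatives were other pseudocounts, filters and scalings, voom, a replicate block and fits without each library in turn. A list's counts were given without a set test. Figures used python 3.11.15 and matplotlib 3.10.9.

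The members and lists were chosen with earlier results of these data known. Named genes are the members, at most 3 other genes of each list with the smallest p, the small lectin and ligand families, and the 3 nearest profiles. Genes named beside these, such as *Irf8*, *Batf*, *Flt3*, *Fscn1*, *Ccl17*, *Irf2*, *Nr4a3*, *Xcr1*, *Clec9a*, *Wdfy4*, *Snx22*, *Siglech* and *Lyz2*, were chosen after their values were seen. Listed symbols without a match (*Jaml*, *Nectin1*, *Ly6g*, *Hbb-bt*) were not analysed here. Some genes of the lists are not reported here by name.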

Additional observations from a re-analysis of the deposited data

How the results depend on the processing

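The direction of all 9 members held under every alternative run (3 filters, 2 pseudocounts, 2 scalings, voom, the replicate block and 4 fits without a library). *Batf3*, *Id2*, *Irf4* and *Mgl2* also kept their side of the threshold throughout, with log2 fold changes of -0.71 to -0.43, -0.37 to -0.30, -0.60 to -0.46 and -0.81 to -0.64. Without a filter, *Cd209a* (-1.55, limma adjusted p = 0.0605) and *Dpp4* (-0.66, limma adjusted p = 0.108) missed it. Then 1626 genes passed in place of 2866, 53 genes of the lists passed in place of 91, and 0 members passed with a 2-fold change (limma). Under the usual filter 1 member passed with a 2-fold change, also with voom, and 8 members had an unadjusted p under 0.05 in the main limma fit. *Dpp4* also missed the threshold with filters of 0.1 FPKM and 1 FPKM in 2 libraries (-0.66, limma adjusted p = 0.0665 and 0.0593). With no filter at all, the lower calls numbered 7 in place of 15 in the mature migratory DC list and 5 in place of 12 in the cDC2 list. They numbered 4 in place of 7 in the core list, 5 in place of 9 in the neutrophil list and 2 in place of 9 in the macrophage list. In the eosinophil and the lymphoid lists they numbered 0 in place of 2 each (limma). A pseudocount of 1 FPKM left 56 genes past 2-fold in place of 170. With voom, *Ccr7* (-0.53) and *Clec10a* (-0.38) passed. The cause was not tested.

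The replicate numbers are shared by the groups without a stated meaning, the deviations of same-numbered libraries correlated at r = 0.247 across genes, and with the replicate block all 9 members passed, among them *Zbtb46* (-0.51, limma adjusted p = 0.0164), *Ccr7* (-0.53, limma adjusted p = 0.000430) and *Clec10a* (-0.39, limma adjusted p = 0.00591), and 3979 genes in all.

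With 1 library left out, the lone library of its group is assumed to vary like the others. The number of genes passing was then between 1500 and 1924, that of members between 5 and 8, and log2 fold changes ranged from -1.92 to -1.17 (*Cd209a*), -0.88 to -0.15 (*Zbtb46*), -0.79 to -0.28 (*Ccr7*), -0.56 to -0.23 (*Clec10a*) and -0.86 to -0.46 (*Dpp4*). *Cd209a* had the fewest estimated reads of the members, 32 in G-CSF replicate 2, and whether depth sets its spread was not tested.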
